A study of Mus musculus with 22 samples.

Results

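The alternative pathway of complement was followed through laser injury of the mouse retina and choroid by 9 genes: C3, Cfb, Cfd, Cfp, Cfi, Cd55, Cd59a, C3ar1 and C5ar1. They were taken by gene symbol from the deposited count tables, with earlier results of these data known, and they are 9 of 54532 genes in each table. All animals were adult C57BL/6J mice, and RNA came from retina and choroid together. The wild-type table holds 16 libraries, 4 in each group: control without choroidal neovascularisation (CNV), then day 3, day 7 and day 14 after laser burns. The second table holds 6 libraries, all at day 3 after the same laser treatment: 3 from Rag2-/-γc-/- mice and 3 from Rag2-/- mice. Both genotypes carry the Rag2 deletion and so lack T and B cells. The Rag2-/-γc-/- mice also lack the common gamma chain (gene Il2rg), without which NK cells do not develop, and no unlasered library of either genotype was used here. Laser CNV is an acute model of neovascular age-related macular degeneration, in which burns break the membrane under the pigment epithelium and choroidal vessels grow through it.

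Complement is a cascade of plasma and tissue proteins that tags surfaces and attracts phagocytes. In the alternative pathway C3 turns over slowly by itself, factor B (Cfb) binds the product and factor D (Cfd) cleaves factor B, which gives an enzyme that cleaves more C3. Properdin (Cfp) stabilises that enzyme, factor I (Cfi) degrades C3b, CD55 takes the enzyme apart and CD59 blocks the membrane attack complex. The released fragments C3a and C5a act through the receptors C3ar1 and C5ar1. Genes of this pathway carry risk variants for age-related macular degeneration in people.

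Of the 9 genes, 7 had a promoter window in the RefSeq table of build GRCm38.p6, which spans 250 bases before to 50 bases after the transcription start. The windows of the 4 members that rose at day 3 and have one are shown, because these are the regions in front of the genes whose levels changed. Cfi rose too and has no window in the table, like Cfb. They are written 5′ to 3′ on the strand of the gene, and capitals mark a match to 1 of 6 searched motifs. The C3 window is chr17:57228087-57228386 on the minus strand, the Cfd window chr10:79890603-79890902 on the plus strand, the C3ar1 window chr6:122856108-122856407 on the minus strand and the C5ar1 window chr7:16259289-16259588 on the minus strand.
C3: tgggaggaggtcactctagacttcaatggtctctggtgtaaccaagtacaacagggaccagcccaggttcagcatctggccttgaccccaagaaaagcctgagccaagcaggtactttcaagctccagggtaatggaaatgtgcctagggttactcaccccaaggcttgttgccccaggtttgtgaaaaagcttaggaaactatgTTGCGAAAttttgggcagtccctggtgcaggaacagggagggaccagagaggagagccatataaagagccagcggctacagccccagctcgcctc
Cfd: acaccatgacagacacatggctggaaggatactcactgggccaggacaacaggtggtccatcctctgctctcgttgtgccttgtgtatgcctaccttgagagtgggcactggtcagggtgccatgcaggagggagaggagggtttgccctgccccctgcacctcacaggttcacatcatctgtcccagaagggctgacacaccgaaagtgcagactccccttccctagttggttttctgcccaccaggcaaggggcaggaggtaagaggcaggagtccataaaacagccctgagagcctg
C3ar1: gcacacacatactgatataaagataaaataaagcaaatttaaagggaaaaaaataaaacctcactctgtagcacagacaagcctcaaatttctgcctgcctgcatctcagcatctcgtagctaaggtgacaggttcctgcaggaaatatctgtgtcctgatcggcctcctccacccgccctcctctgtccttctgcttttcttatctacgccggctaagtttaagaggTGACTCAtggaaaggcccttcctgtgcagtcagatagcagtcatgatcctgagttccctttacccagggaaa
C5ar1: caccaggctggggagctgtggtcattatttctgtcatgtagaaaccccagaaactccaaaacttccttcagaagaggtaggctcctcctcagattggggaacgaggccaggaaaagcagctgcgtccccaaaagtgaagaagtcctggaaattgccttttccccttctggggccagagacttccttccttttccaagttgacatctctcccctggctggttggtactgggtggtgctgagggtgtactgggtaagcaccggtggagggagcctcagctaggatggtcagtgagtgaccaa

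The motifs were searched on both strands by their letters alone: C/EBP as TTGCNNAA, AP-1 as TGANTCA, a PU.1 core as GAGGAA, an interferon-stimulated element (ISRE) as GAAA at 2 places with 2 bases between, a gamma-activated site as TTCNNNGAA and NF-kB as GGGA, 1 base and TTTCC. The C3 window held 1 C/EBP match, TTGCGAAA, at -45 to -38 from the start, and the C3ar1 window 1 AP-1 match, TGACTCA, at -22 to -16. Among all 32817 windows of the table, 10.8% held the C/EBP letters and 7.8% the AP-1 letters. The Cfd, C5ar1 and Cd55 windows held none of the 6. The Cfp window held the PU.1 core at 2 places, 6 to 11 and 22 to 27 after the start, and the Cd59a window held it at -62 to -57 beside an ISRE match at -187 to -178. The PU.1 core occurred in 28.3% of all windows, the ISRE in 3.4%, the gamma-activated site in 8.3% and NF-kB in 0.4%. These matches describe the letters and are not sites. The RefSeq start of C5ar1 lies 202 bases from the end of the gene model in the deposited tables, so the window and the counted gene differ there.

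Library totals ran from 15033983 to 16848254 counts in the wild-type table and from 27227847 to 30315086 in the other. As a check of the genotypes, Il2rg had 0 counts in all 3 Rag2-/-γc-/- libraries and 28 to 62 in the Rag2-/- libraries. Rod and pigment epithelium markers were present in every library, with summed levels of 14500 to 62100 CPM (counts-per-million values, scaled by TMM within a table) over 8 rod genes and 1140 to 2960 CPM over 7 pigment epithelium genes. Both sums were lower in every day 3 library than in every control, at 27000 to 42800 CPM at day 3 and 54900 to 62100 CPM in control for rods, and at 1210 to 1910 CPM at day 3 and 2090 to 2960 CPM in control for pigment epithelium. Lens RNA, summed over 13 markers, was 180 to 13400 CPM in control, 26200 to 52300 CPM at day 3, 10.1 to 35300 CPM at day 7 and 649 to 144000 CPM at day 14, so at day 3 it moved with the group, with every library above every control. Day 14 replicate 1 had the highest lens sum and the lowest rod sum of all libraries, and day 3 replicate 3 the highest sum of cornea and conjunctiva markers (35500 CPM). Control replicate 4 has a title without CNV and a treatment tag of laser, and was kept as a control. No label ties each library to its own animal, so p-values measure the spread between these libraries, which may be technical.

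Scaled by gene length as FPKM in the control eyes, Cd59a (19.5 ± 1.06) and Cfp (13.2 ± 1.11) stood far above the other members (SD, n = 4). C3 followed at 0.949 ± 0.269, Cfd at 0.88 ± 0.612, Cfi at 0.492 ± 0.296 and Cd55 at 0.336 ± 0.0754. C3ar1 was at 0.224 ± 0.057, C5ar1 at 0.165 ± 0.0788 and Cfb at 0.119 ± 0.116. From C3 down to Cfb the mean ± SD of each gene overlapped that of its neighbour in this order. At day 3 the order began with Cd59a at 19.3 ± 3.11 and Cfp at 17.6 ± 2.23, and C3 reached 9.72 ± 6.73 and Cfd 6.88 ± 7.13 FPKM.

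**Figure D1:**
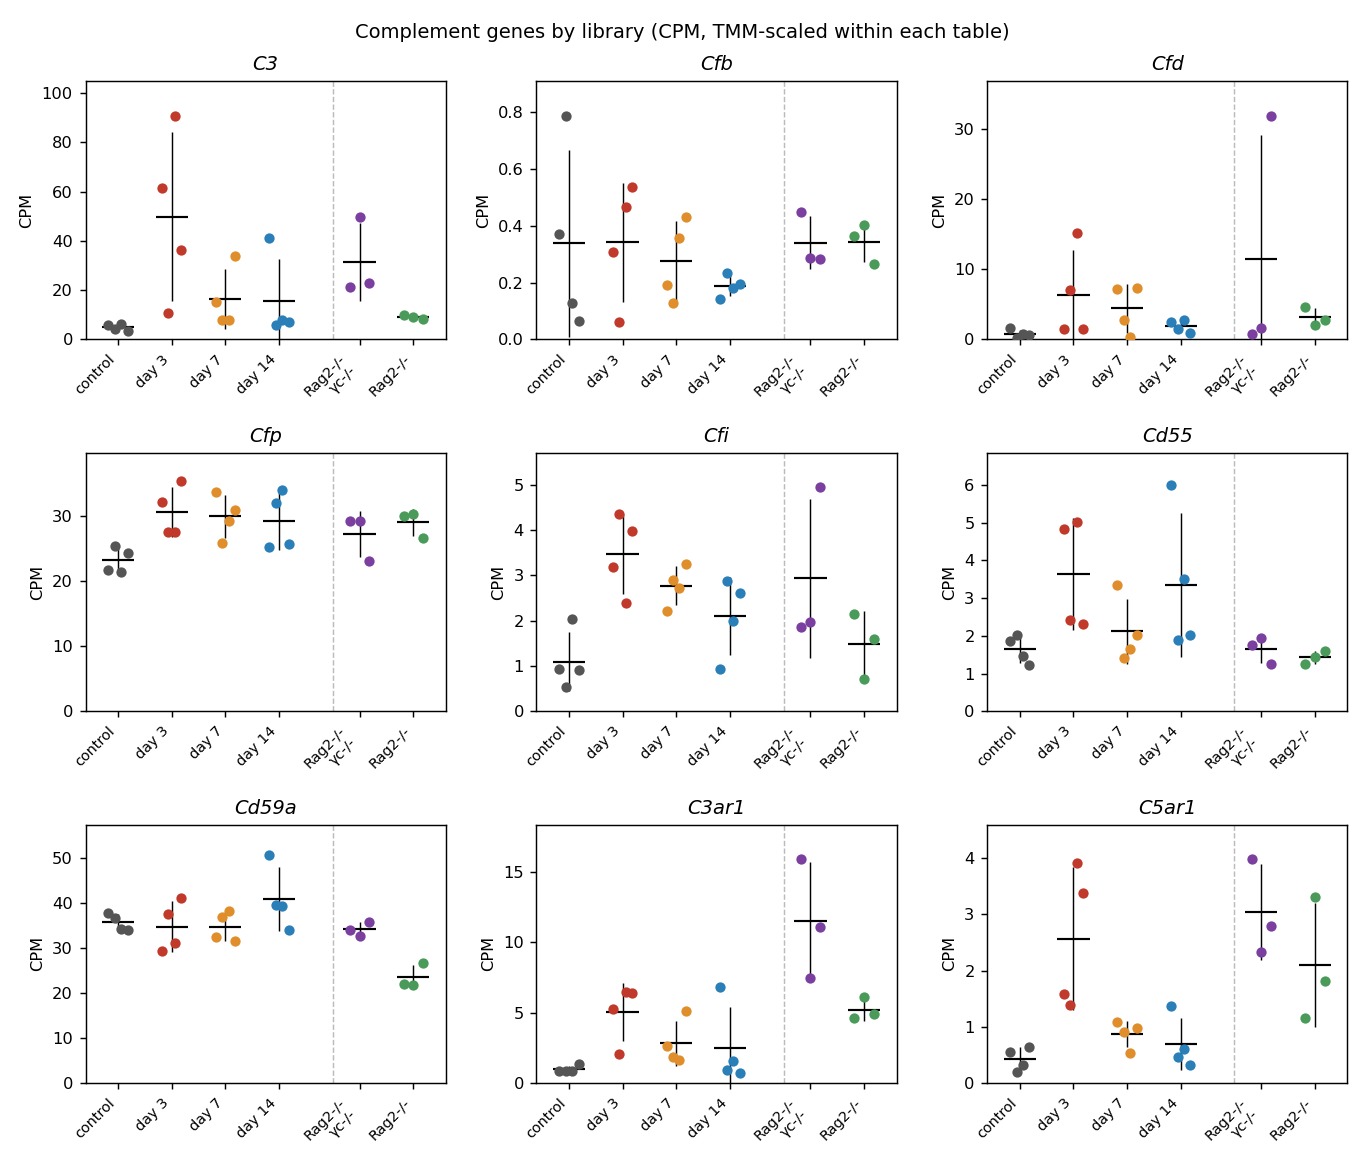
Level of each of the 9 complement genes in every library, in CPM on linear axes from 0; points are libraries, horizontal bars group means and vertical bars the SD, which is drawn only down to 0. The dashed line parts the wild-type libraries from the Rag2 set, which was normalised separately; the 4 day 3 libraries of C3 lie between 10.6 and 90.8 CPM, above all 4 controls, while Cd59a spans 29.3 to 41.3 CPM at day 3 and 34.1 to 37.9 CPM in control.

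Day 3 against control asks which parts of the pathway change in the first days after the burn. C3, Cfd, Cfi, C3ar1 and C5ar1 rose, Cfp and Cd55 were higher in every day 3 library without passing the test, Cd59a overlapped with control and Cfb was too low to test. A gene was called at an adjusted p under 0.05 by edgeR's quasi-likelihood test over all 18657 genes tested. By this rule 5 of the 9 members were called higher and 0 lower, where 6.97% of all tested genes were called higher. The median log2 fold change of the 8 members that passed the filter on low counts was 2.01, and that of all tested genes 0.01. In 6 members every day 3 library lay above every control, which held for 17.4% of all tested genes. The tissue was sequenced in bulk, so more cells of a type and more RNA per cell cannot be told apart.

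C3, the protein on which all complement pathways converge (ENSMUSG00000024164, chromosome 17, 57203970 to 57228136 on mm10, minus strand), had 61.5, 10.6, 90.8 and 36.2 CPM at day 3, against 6, 4.07, 6.16 and 3.44 CPM in control. The groups did not overlap, and day 3 replicate 2 lay much nearer to the controls than the other 3 libraries. The mean was 49.8 ± 34.4 CPM at day 3 and 4.92 ± 1.37 CPM in control (SD, n = 4 each), which is 10.1-fold or 3.34 ± 0.756 on the log2 scale (SE, edgeR adjusted p = 0.0182). This was the largest fitted change among the members.

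Cfd, the protease factor D, also called adipsin because fat cells secrete it (ENSMUSG00000061780, chromosome 10, 79890853 to 79892655, plus strand), had 1.47, 7.12, 15.2 and 1.43 CPM at day 3, against 1.61, 0.262, 0.826 and 0.585 CPM in control. Replicates 2 and 3 were high, and replicates 1 and 4 lay below the highest control, so the groups overlapped. Its log2 fold change was 2.92 ± 0.892 (SE, edgeR adjusted p = 0.0429), with means of 6.31 ± 6.52 CPM at day 3 and 0.82 ± 0.574 CPM in control. The summed level of 10 adipocyte markers in the same order of libraries was 61, 72, 94.1 and 49.1 CPM at day 3, against 55.9, 45.3, 41.2 and 47.8 CPM in control, so the same replicates 2 and 3 were highest. At most 2 of the 10 had 0 counts in a library of these groups. Of the 10 markers 7 passed the filter, with a median log2 fold change of 0.59, and 2 were called higher. These were Fabp4, a fatty acid carrier, and Adipoq, the hormone adiponectin, which averaged 1.08 ± 0.977 CPM at day 3 and 0.206 ± 0.114 CPM in control. Adipoq and the markers Plin1 and Cidec made up little of the sum in these groups, which came mostly from other listed markers. Plin1 averaged 0.469 CPM at day 3 and 0.321 CPM in control, and Cidec 0.963 and 0.111 CPM in that order. Plin4 (-0.51) and Adrb3 (-1.61) had negative log2 fold changes that did not pass (edgeR adjusted p = 0.443 and 0.165). The markers' part in the Cfd result was not tested.

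Cfb, the enzyme precursor factor B (ENSMUSG00000090231, chromosome 17, 34856374 to 34862518, minus strand), gave 5, 1, 7 and 9 counts at day 3, against 6, 12, 2 and 1 counts in control. It did not pass the filter in the wild-type table, and the groups overlapped. Without the filter its log2 fold change was 0.04 (edgeR adjusted p = 1). Of the 2825 exon bases of Cfb, 2246 also lie in exons of a same-strand gene model, Gm20547, which is listed at 0 counts in all 16 libraries. How reads from the shared bases were counted is unknown, so the level of Cfb is uncertain.

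Cfp, properdin, the only known positive regulator of the pathway (ENSMUSG00000001128, chromosome X, 20925454 to 20931555, minus strand), had 32, 27.4, 27.4 and 35.3 CPM at day 3, against 21.7, 25.3, 21.3 and 24.2 CPM in control. Every day 3 library was above every control, by a small margin. The log2 fold change was 0.40 ± 0.13 (SE), with an edgeR adjusted p of 0.0508, so it narrowly missed the threshold.

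Among the regulators, Cfi, the protease that inactivates C3b (ENSMUSG00000058952, chromosome 3, 129835884 to 129875332, plus strand), had 3.18, 4.35, 2.38 and 3.98 CPM at day 3, against 0.928, 0.525, 2.03 and 0.91 CPM in control. The groups did not overlap, with control replicate 3 close to the lowest day 3 library. Cfi rose by 1.65 ± 0.388 on the log2 scale (SE, edgeR adjusted p = 0.0203).

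Cd55, which breaks up the C3-cleaving enzymes on cell membranes (ENSMUSG00000026399, chromosome 1, 130439027 to 130462744, minus strand), had 4.84, 2.41, 5.03 and 2.32 CPM at day 3, against 1.86, 2.03, 1.46 and 1.23 CPM in control. The groups did not overlap, but the log2 fold change of 1.14 ± 0.409 (SE) did not pass (edgeR adjusted p = 0.0661). Cd55 shares 102 exon bases with an antisense gene model, Gm16083, which had 33 counts over the 16 libraries, and whether the counting used strand is unknown.

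Cd59a, which keeps the membrane attack complex from closing (ENSMUSG00000032679, chromosome 2, 104095801 to 104115354, plus strand), had 29.3, 37.7, 31.1 and 41.3 CPM at day 3, against 37.9, 36.8, 34.2 and 34.1 CPM in control. The day 3 libraries lay on both sides of the controls, and the log2 fold change was -0.04 ± 0.132 (SE, edgeR adjusted p = 0.856), a value that was 0.03 without the 3 libraries richest in lens or cornea RNA. Its near copy Cd59b, to which shared reads could have gone, averaged 0.938 CPM at day 3 and 0.995 CPM in control.

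Both anaphylatoxin receptors rose. C3ar1, the C3a receptor of myeloid cells (ENSMUSG00000040552, chromosome 6, 122847138 to 122856161, minus strand), had 5.27, 2.05, 6.49 and 6.42 CPM at day 3, against 0.866, 0.853, 0.826 and 1.36 CPM in control. C5ar1, the C5a receptor that guides neutrophils and monocytes (ENSMUSG00000049130, chromosome 7, 16246743 to 16259540, minus strand), had 1.59, 1.39, 3.91 and 3.39 CPM at day 3, against 0.557, 0.197, 0.318 and 0.65 CPM in control. Neither receptor overlapped between the groups, and in both, replicate 2 was the lowest of the day 3 libraries, as for C3.

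The fitted rise was 2.36 ± 0.649 on the log2 scale for C3ar1 (SE, edgeR adjusted p = 0.0318) and 2.55 ± 0.495 for C5ar1 (SE, edgeR adjusted p = 0.0116). The counts behind C5ar1 were low, 23 to 59 a library at day 3 and 3 to 10 in control. Monocyte and macrophage markers moved with the receptors. Their summed level over 10 genes was 170, 90.9, 275 and 208 CPM at day 3, against 53.1, 34.1, 59.1 and 52.1 CPM in control, with replicate 2 again the lowest at day 3. In that library and in 3 of the controls 1 of the 10 genes had 0 counts. Of 9 tested markers 6 were called higher, among them Ccr2, the chemokine receptor of inflammatory monocytes, at 3.61 ± 3.04 CPM at day 3 and 0.365 ± 0.294 CPM in control. The 9 microglia markers summed to 96.5 to 130 CPM at day 3 and 63 to 73 CPM in control, with 3 of 9 called higher. The 10 fibroblast markers summed to 352 to 979 CPM at day 3 and 190 to 298 CPM in control, with 3 of 10 called higher. The 10 neutrophil markers summed to 20, 11.6, 126 and 14.5 CPM at day 3, against 16, 19.6, 17.7 and 20.9 CPM in control, so that replicate 3, the day 3 library highest in C3, C3ar1 and C5ar1, stood apart. That library also had the highest cornea and conjunctiva sum, 35500 CPM. Of 4 tested neutrophil markers 3 were called higher, and the other had a negative log2 fold change that was not called. Among the 3 was Csf3r, a growth factor receptor of neutrophils, which averaged 7.89 CPM at day 3 and 0.736 CPM in control. The remaining 6 were too low to test. The part of these cells in the complement results was not tested.

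The day 3 calls depended on single libraries to different degrees. C5ar1 was called in all 8 runs that left out 1 library of the 2 groups (edgeR adjusted p 0.0129 to 0.0449), Cfi in 5 (0.0278 to 0.0619), C3 in 4 (0.0152 to 0.0586), Cfd in 2 (0.0464 to 0.165) and C3ar1 in 1 (0.0292 to 0.0901). C3 missed the threshold without control replicate 2, 3 or 4 and without day 3 replicate 3, at log2 fold changes of 2.87 to 3.67 over the 8 runs. Cfi missed it without control replicate 1, 2 or 4. The number of members called was 2, 1, 2 and 1 without control replicates 1, 2, 3 and 4, and 2 without day 3 replicate 3. With the lens and cornea marker levels as covariates 1 member was called, Cfi (log2 fold change 2.37, edgeR adjusted p = 0.0114), and C5ar1 was at 2.13 (0.0696). C3 was at 1.60 (edgeR adjusted p = 0.224), C3ar1 at 1.35 (0.305), Cfd at 1.36 (0.502) and Cd55 at 0.04 (0.959), each smaller than without the covariates. Lens levels, as given above, were higher in every day 3 library than in every control. In the authors' deposited table, 7 members had an adjusted p under 0.05 at day 3, C3 (1.49e-06), Cfd (0.00601), Cfi (0.000292), Cfp (0.00574), C3ar1 (1.34e-07), C5ar1 (9.72e-06) and Cd55 (0.00526). How many of all genes passed there was not counted, so these 7 cannot be set beside the share called by edgeR.

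**Figure D2:**
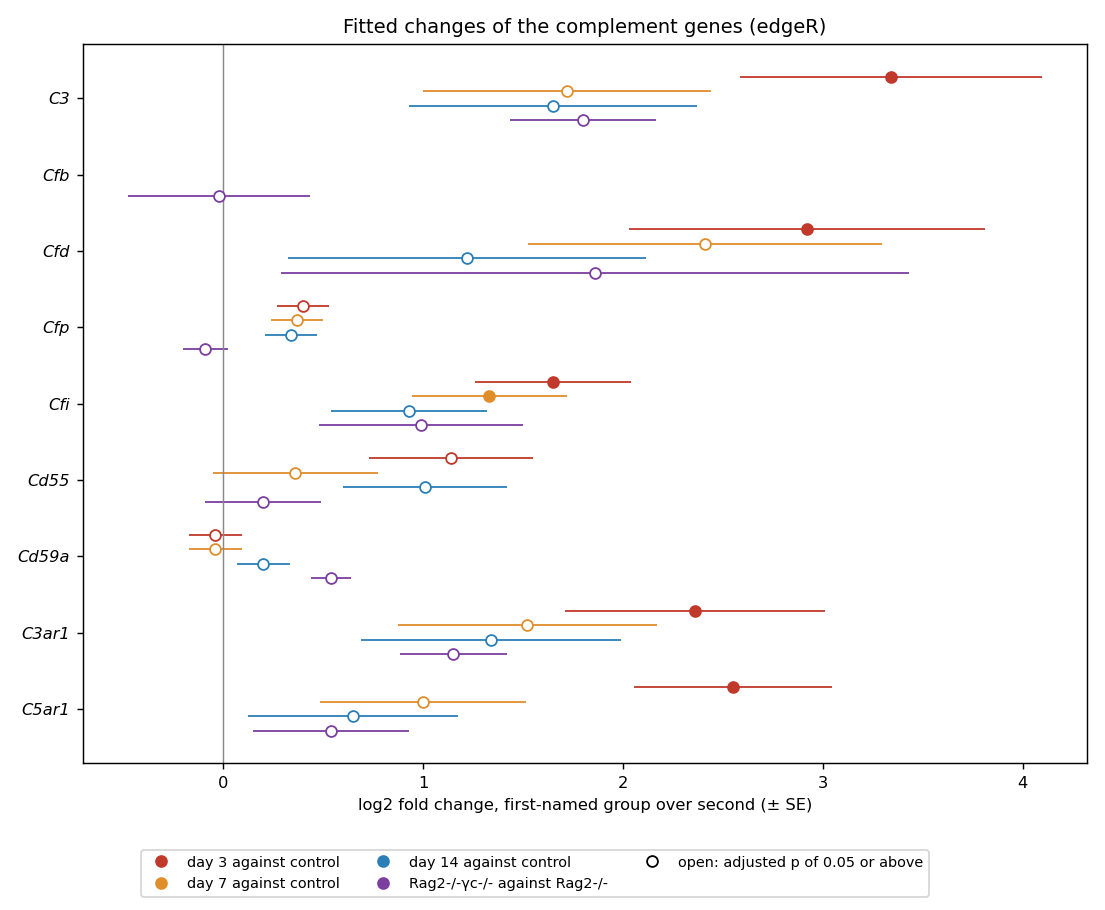
Fitted log2 fold changes of the complement genes, first-named group over second, with bars of ± 1 SE from edgeR; filled points have an adjusted p under 0.05. The filled points are the 5 members called at day 3, from Cfi at 1.65 to C3 at 3.34, and Cfi at day 7 at 1.33; Cfb was tested in the Rag2 comparison only.

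At day 7 Cfi was the member that passed, and C3, Cfp and C3ar1 were also higher in every lasered library than in every control. Thus 1 of the 9 members was called, where 3.62% of all tested genes were called higher, and 4 members had no overlap, where 11.3% of all tested genes had none with day 7 higher. The median log2 fold change of the 8 tested members was 1.17, and that of all tested genes 0.03. Cfi had 2.21, 2.9, 2.72 and 3.25 CPM at day 7, against 0.928, 0.525, 2.03 and 0.91 CPM in control, which is a rise of 1.33 ± 0.388 on the log2 scale (SE, edgeR adjusted p = 0.0436). Of the 8 runs without 1 library it kept this call only in the run without control replicate 3 (edgeR adjusted p 0.0455 to 0.115 over the 8). It was also lost when scaled by library totals (0.0551) and when the filter was dropped (0.0649).

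C3 had 15.4, 8.05, 7.87 and 33.7 CPM at day 7, against 6, 4.07, 6.16 and 3.44 CPM in control. All 4 libraries were above the controls, 2 of them by little, and the log2 fold change of 1.72 ± 0.722 (SE) did not pass (edgeR adjusted p = 0.119). C3ar1 had 2.66, 1.87, 1.66 and 5.1 CPM at day 7, again all above the 0.826 to 1.36 CPM of control, at a fitted log2 difference of 1.52 ± 0.648 (SE, edgeR adjusted p = 0.123). Cfp, at 25.8 to 33.6 CPM at day 7 and 21.3 to 25.3 CPM in control, differed by 0.37 ± 0.13 on the log2 scale (SE, edgeR adjusted p = 0.0758).

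The other members overlapped with control at day 7. Cfd had 7.21, 2.71, 0.414 and 7.37 CPM at day 7, so 3 libraries were above and 1 was within the control range of 0.262 to 1.61 CPM (log2 fold change 2.41 ± 0.887, edgeR adjusted p = 0.0842). Its lowest library, replicate 3, also had the lowest adipocyte sum of the group, 57.1 CPM, beside 103, 62.9 and 89.5 CPM in replicates 1, 2 and 4. Adipoq made up little of that sum, at 0.237 CPM in replicate 3 and 0.822, 1.16 and 1.53 CPM in replicates 1, 2 and 4. C5ar1 averaged 0.873 ± 0.238 CPM at day 7 and 0.43 ± 0.209 CPM in control (edgeR adjusted p = 0.189). Cd55 (log2 fold change 0.36, edgeR adjusted p = 0.56) and Cd59a (-0.04, 0.87) were not called. The authors' deposited table gives an adjusted p under 0.05 at day 7 to C3 (0.000886), Cfd (0.00486), Cfi (0.00494), Cfp (0.0207) and C3ar1 (0.00333). The share of all genes that passed there was again not counted.

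At day 14 edgeR called 0 of the 9 members, and DESeq2 and limma voom each called 0. An unadjusted edgeR p under 0.05 was found for 4 members, and for 4625 of all 18657 tested genes in either direction. Of all tested genes 0.0322% were called higher at day 14. None of the 8 tested members lay wholly above control, which 6.76% of all tested genes did. Their median log2 fold change was 0.97, and that of all tested genes 0.04. C3 had 41.2, 5.92, 8.09 and 7.07 CPM at day 14, and C3ar1 had 6.86, 0.938, 1.57 and 0.714 CPM. In both genes replicate 1 stood far above the other 3 libraries, which lay in or near the control range. The log2 fold changes against control were 1.65 ± 0.722 for C3 (SE, edgeR adjusted p = 0.178) and 1.34 ± 0.651 for C3ar1 (SE, edgeR adjusted p = 0.214). Without replicate 1 they were 0.53 and 0.16.

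The same library was the highest of its group in C5ar1, Cd55 and Cd59a. C5ar1 had 1.37, 0.469, 0.604 and 0.324 CPM at day 14, and Cd55 had 5.99, 1.88, 3.5 and 2.01 CPM. Day 14 replicate 1 also had the highest monocyte and macrophage sum of the wild-type libraries, 295 CPM, beside 69.6 to 116 CPM in the other 3 of its group, and a rod sum of 14500 CPM beside 48500 to 54400 CPM. Cfi ran from 0.939 to 2.87 CPM, Cfd from 0.908 to 2.78 CPM, Cfp from 25.2 to 33.9 CPM and Cd59a from 34.1 to 50.8 CPM at day 14, each overlapping with control.

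The later days were also compared with day 3 itself. At day 7 edgeR called 0 of the 9 members lower than at day 3, and 0% of all tested genes were called lower. An unadjusted edgeR p under 0.05 was found for 2 members, and for 1144 of all 18657 tested genes in either direction. C5ar1 had 1.08, 0.902, 0.533 and 0.982 CPM at day 7, against 1.59, 1.39, 3.91 and 3.39 CPM at day 3, so every day 7 library was below every day 3 library, which held for 2.94% of all tested genes. The log2 fold change was -1.55 ± 0.46 (SE, edgeR adjusted p = 0.65). The medians over the 8 tested members were -0.65 at day 7 and -0.87 at day 14, both relative to day 3, and those of all tested genes -0.01 and 0.02.

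At day 14 edgeR again called 0 members against day 3. Of the members 2 had an unadjusted edgeR p under 0.05, as did 1263 of all 18657 tested genes in either direction. Of all tested genes 0.00536% were called lower and 1.45% had every day 14 library below every day 3 library. C5ar1 was the member in that state (log2 fold change -1.90 ± 0.472, edgeR adjusted p = 0.271). DESeq2 called it, among 83 genes that it called lower. The absence of edgeR calls among the members depended on day 14 replicate 1. Without it 3 members were called lower than at day 3, C3 at -2.82 (edgeR adjusted p = 0.0319), C3ar1 at -2.22 (0.0173) and C5ar1 at -2.43 (0.0123), where 3.72% of all genes tested without it were called lower.

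The Rag2 comparison asks what differs at day 3 where the common gamma chain is lacking as well. In it the lack of NK cells cannot be told apart from other differences between the genotypes. C3, C3ar1 and Cd59a were higher in all 3 Rag2-/-γc-/- libraries than in all 3 Rag2-/- libraries, but no member passed the test. EdgeR called 0 of the 9 members, where 0.211% of 18923 tested genes were called higher and 11.5% had no overlap with Rag2-/-γc-/- higher. C3, C3ar1 and Cd59a had an unadjusted edgeR p under 0.05, as did 2778 of the 18923 tested genes in either direction. Limma voom also called 0. DESeq2 called these 3, among 425 genes that it called higher and 692 that it called in either direction. The median log2 fold change of the 9 members was 0.54, and that of all tested genes 0.

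C3 had 21.4, 49.9 and 23.1 CPM in Rag2-/-γc-/- mice, against 9.97, 9 and 8.14 CPM in Rag2-/- mice. The Rag2-/- libraries lay close together, and the lowest Rag2-/-γc-/- library was above all of them. The log2 fold change was 1.80 ± 0.367 (SE, edgeR adjusted p = 0.137, and 3.8e-08 by DESeq2). Without Rag2-/-γc-/- replicate 2, the highest library, it was 1.30 and passed (edgeR adjusted p = 0.0175).

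C3ar1 had 15.9, 7.49 and 11.1 CPM in Rag2-/-γc-/- mice, against 4.59, 6.09 and 4.9 CPM in Rag2-/- mice. The log2 fold change was 1.15 ± 0.268 (SE, edgeR adjusted p = 0.127, and 0.00265 by DESeq2). The monocyte and macrophage sum was 466, 146 and 254 CPM in the same Rag2-/-γc-/- libraries, against 130, 174 and 137 CPM in Rag2-/- mice, so replicate 2 had the lowest C3ar1 and the lowest sum of its group, though the highest C3. The microglia markers summed to 149, 114 and 143 CPM in Rag2-/-γc-/- mice, against 83.1, 93.4 and 83.6 CPM in Rag2-/- mice, with 1 of 9 called higher, and their part was not tested.

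Cd59a had 34.1, 32.7 and 35.8 CPM in Rag2-/-γc-/- mice, against 22.1, 21.9 and 26.7 CPM in Rag2-/- mice. Both groups were tight and apart, and the log2 fold change of 0.54 ± 0.099 (SE) came nearest to the threshold (edgeR adjusted p = 0.0664, 0.00198 when the filter was dropped and 0.00137 by DESeq2). The wild-type libraries, normalised in the other table and not compared by a test, held 29.3 to 50.8 CPM of Cd59a. The 2 sets also differed in cornea and conjunctiva markers, which summed to 2630 to 35500 CPM in wild type and 14.3 to 22.5 CPM in the Rag2 set.

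Cfd was set by 1 library. It had 0.746, 1.69 and 31.9 CPM in Rag2-/-γc-/- mice, against 4.69, 2.04 and 2.75 CPM in Rag2-/- mice. Replicate 3 was far above all others, while replicates 1 and 2 were below every Rag2-/- library, and the fitted difference of 1.86 ± 1.57 on the log2 scale (SE, edgeR adjusted p = 0.644) was -1.37 without replicate 3. The adipocyte sum was 20.4, 25.3 and 101 CPM in the same Rag2-/-γc-/- libraries, against 37.3, 24.9 and 30 CPM in Rag2-/- mice. Cfi was highest in the same replicate 3, with 1.86, 1.98 and 4.96 CPM in Rag2-/-γc-/- mice, against 2.15, 0.703 and 1.59 CPM in Rag2-/- mice (edgeR adjusted p = 0.417).

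The remaining 4 members overlapped between the genotypes. C5ar1 had 3.99, 2.34 and 2.8 CPM in Rag2-/-γc-/- mice, against 1.16, 3.31 and 1.82 CPM in Rag2-/- mice (edgeR adjusted p = 0.564). Cfp averaged 27.2 ± 3.49 CPM in Rag2-/-γc-/- mice and 28.9 ± 2 CPM in Rag2-/- mice, Cd55 1.65 ± 0.365 and 1.43 ± 0.168 CPM in that order, and Cfb 0.34 ± 0.0933 and 0.343 ± 0.0706 CPM (SD, n = 3 each). Their log2 fold changes were -0.09, 0.20 and -0.02 (edgeR adjusted p = 0.745, 0.787 and 0.991).

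**Figure D3:**
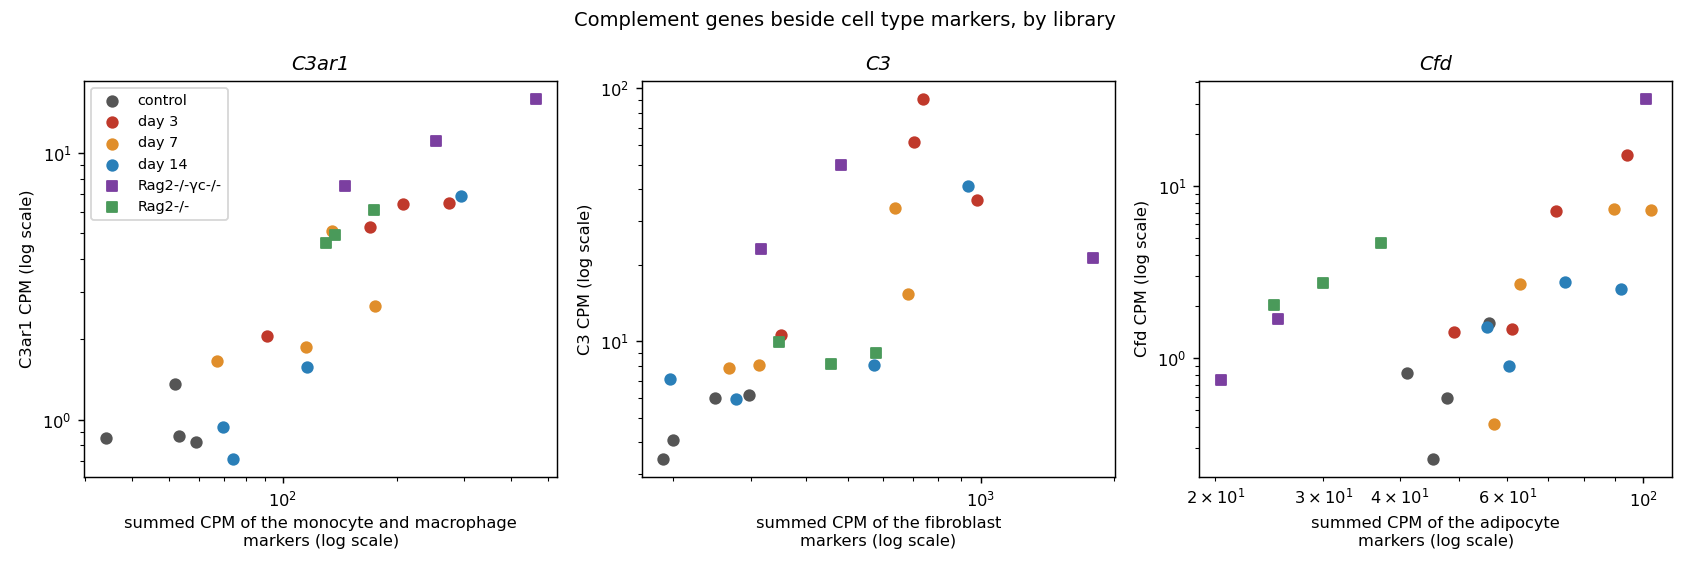
C3ar1, C3 and Cfd in each library (CPM, log scale) plotted against the summed CPM of the monocyte and macrophage, fibroblast and adipocyte markers (log scale); circles are wild-type libraries and squares the Rag2 set, normalised separately. The Rag2-/-γc-/- library with 31.9 CPM of Cfd also has the highest adipocyte sum of its set, 101 CPM, while the Rag2-/-γc-/- library with the highest fibroblast sum, 1800 CPM, has the lowest C3 of its group, 21.4 CPM.

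Across the 16 wild-type libraries C3 and both receptors varied together. Pearson's r of log2 CPM was 0.927 between C3 and C3ar1, 0.885 between C3ar1 and C5ar1 and 0.846 between C3 and C5ar1, and 0.612 between C3 and Cfd. Cd59a varied apart from C3 (r = -0.147). These values are descriptions over libraries that share time points, dissection and depth. Among tested genes that averaged 5 CPM or more, the 5 nearest to C3 were Chil1 (r = 0.944), a secreted chitinase-like protein, Lcp1 (0.941), an actin bundler of leukocytes, the Fc receptor Fcgr3 (0.940), Gmip (0.933) and the ribonuclease Rnase4 (0.931). The 5 nearest to C3ar1 were the endocytic adaptor Dab2 (r = 0.953), Serping1 (0.945), which encodes the C1 inhibitor, Spp1 (0.944), the matrix protein osteopontin, Pld4 (0.943), and Cyba (0.936), a subunit of the phagocyte oxidase. Cfd had looser neighbours, Gm20219 (r = 0.840), Gmnn (0.836), an inhibitor of DNA replication licensing, 1810030O07Rik (0.822), the mitotic motor Kif11 (0.819) and Aldh16a1 (0.814).

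The rest of the cascade was counted from lists of 11 regulators, 8 receptors, 16 classical and lectin pathway genes and 7 terminal pathway genes, and the regulators and receptors hold 5 of the members (Cfi, Cd55, Cd59a, C3ar1 and C5ar1). At day 3, 4 of 6 tested receptors rose, the members C3ar1 and C5ar1 and the chains of complement receptor 3, Itgam (log2 fold change 1.98, edgeR adjusted p = 0.0304) and Itgb2 (2.32, 0.0167). In the classical and lectin list 7 of 14 tested genes rose and 0 fell, with a median of 1.60. They were the C1q chains C1qa, C1qb and C1qc, the protease C1ra, C4b, Serping1 and the ficolin Fcna. C4b, whose product forms the C3-cleaving enzyme of the classical pathway, averaged 141 CPM at day 3 and 25.4 CPM in control (log2 fold change 2.48, edgeR adjusted p = 0.0174). Serping1 averaged 102 CPM at day 3 and 26.7 CPM in control (1.94, 0.0281).

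Of 10 tested regulators, Cfi rose and Csmd1, a membrane-bound complement inhibitor that neurons express, fell at day 3, with 5.2 CPM at day 3 and 14.1 CPM in control (log2 fold change -1.44, edgeR adjusted p = 0.0209). The median of the list was -0.06, and of all 18657 tested genes 1300 were called higher and 1449 lower at day 3. Of the 7 terminal pathway genes, which build the membrane attack complex, 2 passed the filter and 0 were called at any day. At day 7 the 3 C1q genes and Itgb2 were called higher, and 2 regulators were lower, Csmd1 (log2 fold change -1.21, edgeR adjusted p = 0.0383) and 1 other. Of all 18657 tested genes 675 were called higher and 1287 lower at day 7. At day 14 edgeR called 0 genes of these lists.

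Between the genotypes 2 genes of these lists were called, where 40 of all 18923 tested genes were called higher and 48 lower. Serping1 averaged 56.1 CPM in Rag2-/-γc-/- mice and 33 CPM in Rag2-/- mice (log2 fold change 0.77, edgeR adjusted p = 0.0457). Masp2, a protease of the lectin pathway, averaged 1.35 CPM in Rag2-/-γc-/- mice and 5 CPM in Rag2-/- mice (log2 fold change -1.88, edgeR adjusted p = 0.0266). The gene lies on chromosome 4 (148602554 to 148615499, plus strand), and whether genes near Masp2 also differ between the genotypes was not looked at here. Its exons share 1817 bases with Tardbp on the opposite strand, so without a known strand setting the reads of these 2 genes cannot be told apart.

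**Figure D4:**
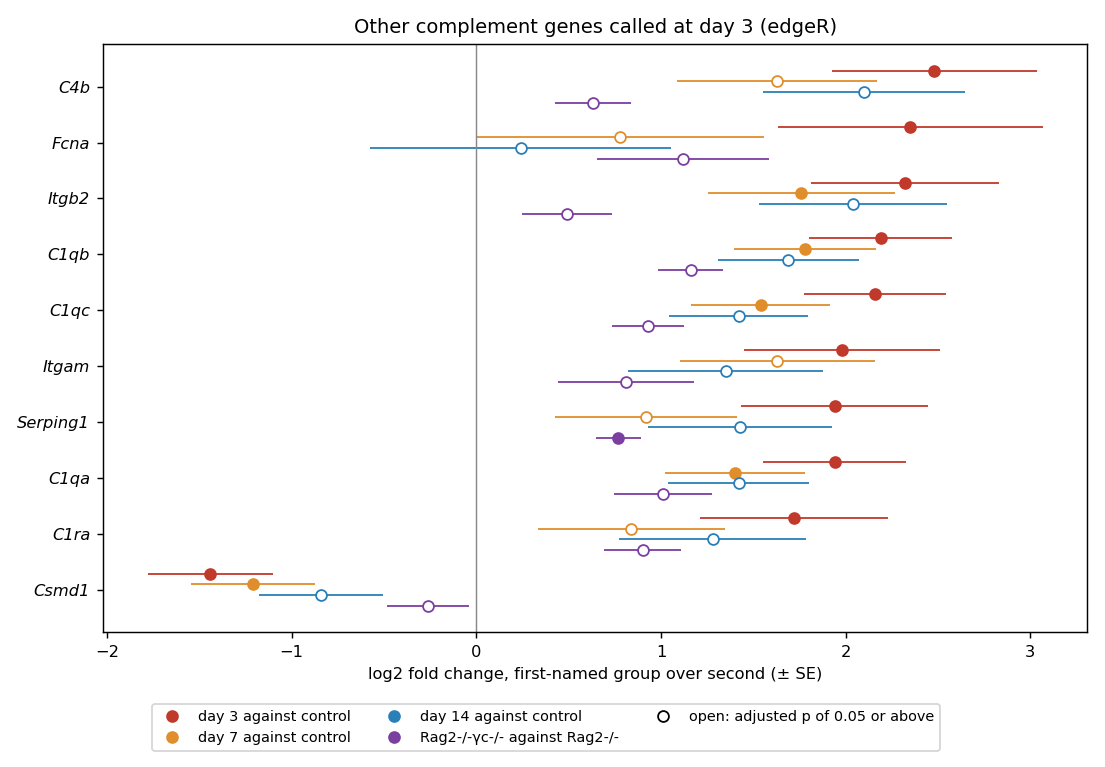
Fitted log2 fold changes, first-named group over second, of the complement genes outside the 9 members that edgeR called at day 3, with bars of ± 1 SE and filled points at an adjusted p under 0.05. At day 3 the 9 rises run from 1.72 for C1ra to 2.48 for C4b, and Csmd1 lies at -1.44; between the genotypes the filled point is Serping1 at 0.77.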

How the data were processed

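Retina and choroid of mice were profiled by bulk RNA sequencing in 22 libraries. Per the labels' protocols, TRIzol was used for extraction and Novogene built the libraries. The authors deposited raw counts per gene, counted with featureCounts 1.5.0-p3 on mm10 per the submitters' processing notes. Neither aligner, strand setting nor annotation release is given in the sources used here. The deposited FPKM values divide those counts by gene length and library total, per the file headers and the values, and served to compare levels between genes. The authors' deposited table also gives log2 fold changes and adjusted p-values against control for the wild type. The tool behind them is not given.

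From the counts, edgeR 4.0.16 in R 4.3.3 kept genes by filterByExpr (minimum count 10, minimum total 15), so that 18657 wild-type and 18923 Rag2 genes were tested. TMM factors scaled the libraries. A robust quasi-likelihood model of group means was fitted to each table across all genes, since table and strain cannot be told apart. Benjamini-Hochberg adjustment ran over all tested genes, with a threshold of 0.05. Likeness used log2 CPM with a prior count of 2. DESeq2 1.42.0, limma 3.58.1 voom, other scalings, no filter, covariates and left-out libraries were alternatives. In simulated counts of the day 3 comparison (18657 genes), 38% of 2-fold and 75% of 4-fold changes were recovered with 3 false calls among the rest. In those of the Rag2 comparison (18923 genes) the shares were 66% and 87%, with 20 false calls. No 2 libraries of the same group agreed within sampling noise.

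The members and lists were chosen with earlier results of these data known. All members are named, with the other listed complement genes that were called, the 5 genes nearest in pattern to C3, Cfd and C3ar1, and Il2rg. Cd59b and the marker genes are named beside a result they bear on. A gene counted in the text is not reported here by name. Promoter windows come from RefSeq, build GRCm38.p6, and gene positions from the deposited tables.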

Additional observations from a re-analysis of the deposited data

Results flagged for a closer look

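The gap of the highest or lowest library to its nearest neighbour, as a share of the range of its group, was computed for each of the 9 genes in the 4 wild-type groups, 36 groups of 4 libraries in all. It passed Dixon's 95% critical value for 4 libraries in 3 of them, and chance alone passes about 1 in 20 groups. C3 in day 14 replicate 1 was at 41.2 CPM, beside 5.92 to 8.09 CPM in the other 3 libraries (share 0.938). C3ar1 in the same library was at 6.86 CPM, beside 0.714 to 1.57 CPM (share 0.861). C3ar1 in control replicate 4, whose treatment tag reads laser, was at 1.36 CPM, beside 0.826 to 0.866 CPM in the other controls (share 0.926), and below every day 3 and day 7 library.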

How the results depend on the processing

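Of the members called at day 3, C5ar1 kept its call without each single library, and the number of members called ran from 1 to 4 over those 8 runs. With lens and cornea levels as covariates it was 1, and 4 to 7 under the other settings. Genes called at day 3 numbered 292 to 2409 without 1 library, 1406 with no filter, 4799 by DESeq2, 7171 with only the 2 groups in the fit, 828 with the covariates and 4168 without the 3 libraries rich in lens or cornea RNA. At day 7 the number of members called was 0 with library totals and with no filter, 4 by DESeq2, with only the 2 groups and without the 3 libraries, and 0 to 1 without 1 library. Genes called at day 7 numbered 128 to 2923 without 1 library, and 751, 3768, 4485 and 3686 with no filter, by DESeq2, with 2 groups and without the 3 libraries. At day 14 they numbered 1 to 159 without 1 library, 6 with library totals, 26 with no filter, 1801 by DESeq2, 101 by limma voom, 1 with 2 groups, 154 with covariates and 514 without the 3 libraries.

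For day 7 against day 3, genes called numbered 63 by DESeq2, 3 with covariates, 9 without the 3 libraries and 0 to 2 without 1 library. For day 14 against day 3 they numbered 0 to 1290 without 1 library, 4 with library totals, 2 with no filter, 115 by DESeq2, 3 by limma voom, 0 with 2 groups, 99 with covariates and 683 without the 3 libraries. Members called there were 0 to 3 without 1 library, 1 by DESeq2 and 2 without the 3 libraries. For Rag2-/-γc-/- against Rag2-/-, genes called numbered 25 to 116 without 1 library, 491 with no filter, 692 by DESeq2 and 43 by limma voom, and members called were 0 to 1, 2, 3 and 0 in that order. The cause of these shifts was not tested.

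Signs turned where the change was near 0 or set by 1 library. Without 1 library the log2 fold change of Cd59a ran from -0.13 to 0.04 at day 3, from -0.08 to 0.01 at day 7 and from -0.07 to 0.09 for day 7 against day 3. For day 7 against day 3 Cfd ran from -0.87 to 0.40 and Cfp from -0.10 to 0.04. For day 14 against day 3 Cd55 ran from -0.56 to 0.07 and Cfp from -0.15 to 0.01. Between the genotypes Cfb ran from -0.26 to 0.10, Cfd from -1.37 to 2.41 and Cfp from -0.16 to 0.01. Without the 3 libraries Cd59a was 0.03 at day 3 and -0.07 for day 7 against day 3, where Cfd was 0.58. With covariates Cd55 was -0.44 at day 7 and 0.13 for day 14 against day 3, and Cfd 0.05 for day 7 against day 3. Cfp was 0.02 there with library totals, and Cd59a was 0 with RLE size factors and by DESeq2.

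Whether replicate numbers pair the libraries was not settled by correlation. Deviations of same-numbered wild-type libraries correlated from -0.506 to 0.479 over 24 pairs, with a median of 0.104. Over the 72 other wild-type pairs the median was -0.00634. Of 48 best matches 16 were with the own number, and in the Rag2 set, too small to decide, 2 of 6 were. With the replicate block, members called were 5 at day 3 and 0 at day 7. At day 3 Cfd lost its call (edgeR adjusted p = 0.0621) and Cd55 gained one (0.0419), and at day 7 Cfi lost its call (0.0539). Genes called with the block were 2 at day 14, 0 for day 14 against day 3 and 46 between the genotypes, and Cd59a was 0 for day 7 against day 3.

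Depth limits the low members most. Cfb had 1 to 12 counts a wild-type library, and C5ar1 3 to 10 in control. With 3 or 4 libraries a group, adjusted p-values near 0.05 moved with each library left out.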
